A study of Rattus norvegicus with 10 samples.

Results

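Milk is made of a few very abundant proteins, and the genes described here encode 8 of them: the caseins Csn1s1, Csn1s2a, Csn2 and Csn3, the whey proteins Lalba and Wap, the mucin-like Glycam1 and the milk fat globule protein Mfge8. They were taken by name, as the probes whose transcript identifier RefSeq pairs with one of these symbols. All 8 were found, each with 1 probe and 1 spot per array, among 36061 genes on the array. 6 of the 8 were among the 16779 genes tested, which had a probe well above background on at least 5 of 10 arrays. Csn1s2a was well above background on 0 arrays and Wap on 4, and both are described from their values only.

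The study measured mammary tumours of female Sprague-Dawley rats, an outbred strain, on Agilent arrays, each hybridised with Cy3-labelled RNA of 1 tumour (200 ng total RNA). In the WD group (5 tumours, WD1 to WD5) the dams had eaten a Western-style diet on gestational days 12 to 20 and postnatal days 1 to 21. In the CD group (5 tumours, CD1 to CD5) the dams had eaten control diet over the same days. Once weaned, daughters of both groups were kept on control diet. At 3 weeks of age they had been injected intraperitoneally, once, with N-methyl-N-nitrosourea, an alkylating mammary carcinogen, at 50 mg/kg. Their tubular or papillary tumours were measured at 110 days, so the tumours of both groups were carcinogen-induced and no normal or lactating gland is among the samples used here. Nothing in the labels tells from which dam or litter a tumour came, so p-values measure the spread between these tumours only.

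During lactation, prolactin acts through its receptor Prlr, the kinase Jak2 and the transcription factor Stat5a, together with glucocorticoids and the factor Elf5, to switch on milk protein genes in luminal alveolar cells. Caseins carry calcium phosphate into milk as micelles, and Csn3 (kappa-casein) coats the micelle and keeps it in solution. Lalba (alpha-lactalbumin) joins the galactosyltransferase B4galt1 to form lactose synthase, and Wap (whey acidic protein) is an abundant whey protein of rodent milk. Mfge8 (lactadherin) is a glycoprotein of the milk fat globule that also bridges dying cells to phagocytes, and is made by cells outside the milk-secreting epithelium as well.

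The promoters are shown because prolactin signalling is known to act on milk protein genes during lactation. As described further on, the members did not share a common pattern across tumours. The 250 bases before the RefSeq start of 5 members are printed 5′ to 3′ on the gene's strand (RefSeq, GRCr8), with any match to TTCNNNGAA, the letters of a STAT5-type site, in capitals.
Csn1s1, chr14:20638850-20639099 (- strand): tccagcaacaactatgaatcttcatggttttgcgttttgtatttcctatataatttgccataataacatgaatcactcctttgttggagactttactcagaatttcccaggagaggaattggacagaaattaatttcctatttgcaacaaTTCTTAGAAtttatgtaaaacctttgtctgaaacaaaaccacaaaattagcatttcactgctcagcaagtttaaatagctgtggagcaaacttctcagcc
Csn1s2a, chr14:20574472-20574721 (- strand): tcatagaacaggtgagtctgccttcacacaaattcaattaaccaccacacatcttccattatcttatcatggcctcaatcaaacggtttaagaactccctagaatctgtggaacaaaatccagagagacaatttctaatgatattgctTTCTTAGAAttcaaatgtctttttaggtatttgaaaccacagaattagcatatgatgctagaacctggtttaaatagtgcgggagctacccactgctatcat
Csn2, chr14:20601574-20601823 (+ strand): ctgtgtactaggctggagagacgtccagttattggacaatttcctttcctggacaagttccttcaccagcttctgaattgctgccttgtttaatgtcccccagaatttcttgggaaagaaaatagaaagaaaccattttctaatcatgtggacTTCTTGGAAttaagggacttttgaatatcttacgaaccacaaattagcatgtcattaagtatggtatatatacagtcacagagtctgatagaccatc
Csn3, chr14:20439831-20440080 (- strand): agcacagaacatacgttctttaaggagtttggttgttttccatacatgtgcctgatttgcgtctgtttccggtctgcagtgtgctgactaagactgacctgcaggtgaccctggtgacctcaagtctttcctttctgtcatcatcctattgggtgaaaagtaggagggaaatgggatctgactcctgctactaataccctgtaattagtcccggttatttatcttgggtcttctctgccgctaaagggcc
Lalba, chr7:131507073-131507322 (- strand): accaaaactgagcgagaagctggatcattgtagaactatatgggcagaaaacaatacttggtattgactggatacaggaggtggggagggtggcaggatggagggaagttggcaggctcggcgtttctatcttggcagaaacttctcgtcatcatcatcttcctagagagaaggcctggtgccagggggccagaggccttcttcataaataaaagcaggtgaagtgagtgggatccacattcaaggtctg

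A STAT5-type match was found in 4 of the 8 members, against 7.67% of all 33469 promoters of the same length. Csn1s1 and Csn1s2a carried the same letters, TTCTTAGAA, with the first base 100 and 102 bases before the start. Csn2 carried TTCTTGGAA 97 bases before its start, and Glycam1, on chromosome 7, carried TTCCCAGAA 175 bases before its start. Csn3, Lalba, Wap and Mfge8 had no match in this window. The glucocorticoid receptor letters TGTTCT, read on both strands, were found in Csn1s2a and Csn3 (2 of 8 members, 17.5% of all promoters), at 246 and 245 bases before the start. The C/EBP-type letters TTGCNNAA were found in 0 of 8 members and in 9.22% of all promoters. The 4 casein genes lie in 1 cluster on chromosome 14, in the order Csn3, Csn1s2a, Csn2 and Csn1s1, with Csn2 on the opposite strand to the other caseins. Csn3 stands at 1 end, with Fdcsp, Odam, Prr27 and Csn1s2b among the genes between it and Csn1s2a.

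The 10 arrays lay on 3 slides, each with its own scan, and the slides line up with the milk protein levels. Slide 1 held WD1, WD2 and CD2, slide 2 held WD3, WD4, CD3 and CD5, and slide 3 held WD5, CD1 and CD4. Every slide held different tumours, so a difference between slides or scans and a difference between these tumours cannot be told apart. The 75th percentile of spot intensity was between 72.8 and 170 on WD arrays and between 85 and 226 on CD arrays. Arrays had 16685 to 21905 probes well above background, and correlated with each other at 0.915 to 0.977 over tested genes. All levels below are log2 intensities minus the array's 75th percentile, so 0 is that percentile. A level depends on its probe, so levels are compared between tumours and not between genes. In whole tumours, fewer cells that make milk and less milk RNA per cell cannot be told apart.

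The caseins were found at very different levels in different tumours. Csn1s1 (alpha-S1-casein, a calcium-binding casein) had levels of 5.20, 4.96, -2.87, -0.22 and 5.09 in WD1 to WD5, against 6.26, 3.69, 0.80, 4.62 and 2.33 in CD1 to CD5. WD3 was not well above background, and WD4, CD3 and CD5 lay next above it, so the lowest 4 tumours were the 4 of slide 2. The highest tumour, CD1, was at least 303-fold above the lowest, with WD3 taken at the lowest signal called well above background on its array.

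Csn3 had levels of 6.56, 5.62, 3.78, -1.11 and 6.64 in WD1 to WD5, against 6.67, 5.53, 2.77, 5.62 and 3.21 in CD1 to CD5. It was the only casein well above background on all 10 arrays, and CD1 was 219-fold above WD4. The 6 tumours of slides 1 and 3 lay within 5.53 to 6.67, and the 4 of slide 2 lay below them and spread from -1.11 to 3.78.

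Csn2 (beta-casein, a major casein of rodent milk) followed another order. Its levels were -0.60, -0.33, -2.32, -2.70 and -2.44 in WD1 to WD5, against -3.19, -0.38, -2.58, -2.74 and -2.07 in CD1 to CD5. It was not well above background in WD3, WD4 and CD1, of which CD1 was the highest tumour for Csn1s1 and Csn3. WD1, WD2 and CD2, the 3 tumours of slide 1, stood apart above the other 7, and the highest tumour was at least 5.33-fold above the lowest. Csn1s2a (an alpha-S2-type casein) had measured levels of -5.09 to -3.80 in WD tumours and -5.01 to -4.44 in CD tumours, none of them well above background. Csn1s2b, the neighbouring gene of the same type in the cluster, was also well above background on 0 arrays.

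Of the whey proteins, Lalba spread most. Its levels were 5.17, 5.39, 2.66, -4.15 and 5.85 in WD1 to WD5, against 6.48, 5.75, -1.50, 4.25 and 3.40 in CD1 to CD5. WD4 was not well above background, CD3 was the next lowest, and CD1 stood at least 330-fold above WD4. The 6 highest tumours were those of slides 1 and 3, as for Csn1s1 and Csn3. Wap was well above background in WD2 (-1.19) and WD5 (-1.94), and in CD1 (-0.41) and CD2 (-1.75). These 4 tumours were all on slides 1 and 3, and no tumour of slide 2 had a Wap signal well above background.

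Glycam1, a mucin-like glycoprotein of milk that is also known from lymph node endothelium, had its own order of tumours. Its levels were -3.40, 1.45, -0.74, -2.82 and -3.63 in WD1 to WD5, against -0.20, 2.40, -4.24, 1.44 and -4.56 in CD1 to CD5. It was well above background in 2 WD tumours (WD2, WD3) and 3 CD tumours (CD1, CD2, CD4), and the highest was at least 50.2-fold above the lowest. WD1 and WD5, both high for Csn1s1, Csn3 and Lalba, had no Glycam1 signal well above background.

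Mfge8 was well above background on all 10 arrays. Its levels were 5.43, 4.48, 3.32, 3.19 and 4.90 in WD1 to WD5, against 5.94, 5.15, 3.74, 5.80 and 4.04 in CD1 to CD5. The highest tumour was 6.72-fold above the lowest, and the 4 tumours of slide 2 were again the lowest 4.

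**Figure D1:**
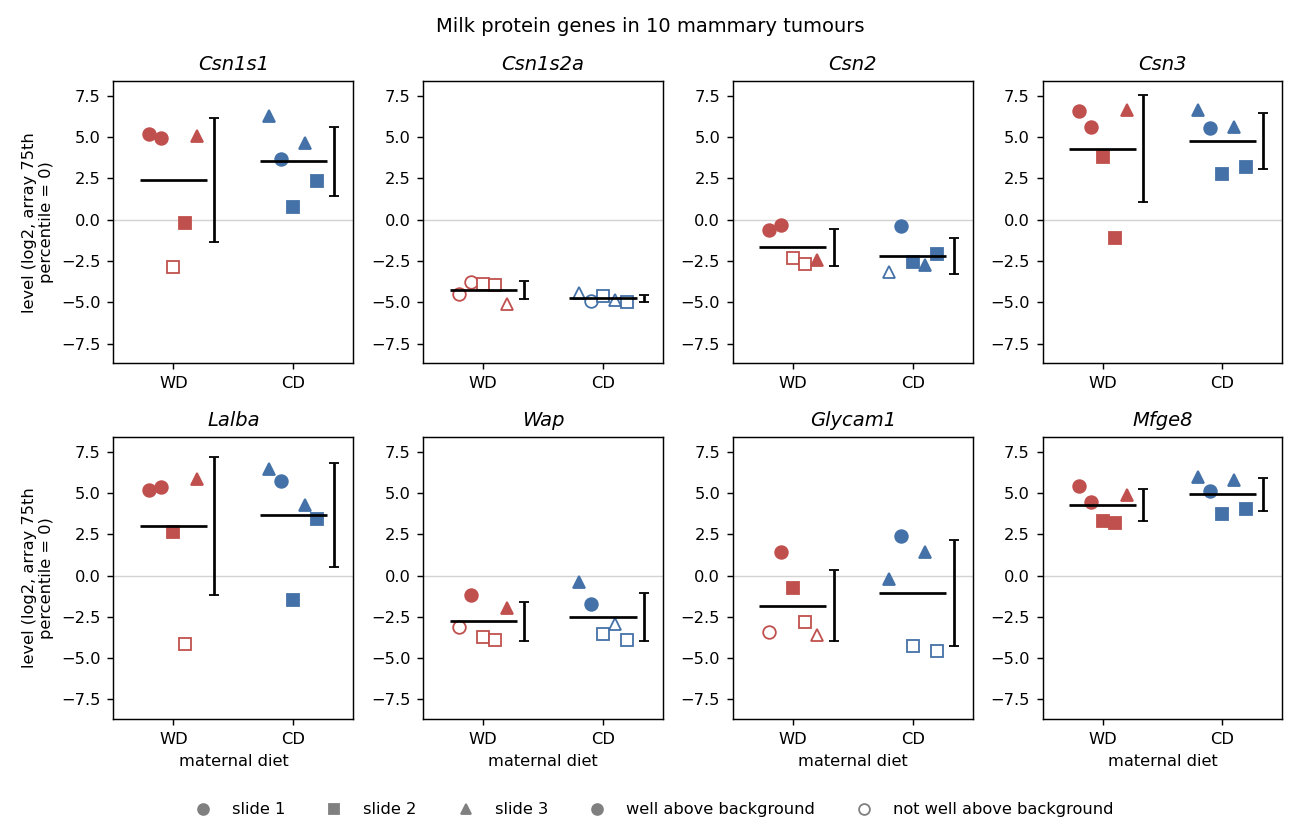
Level of each of the 8 milk protein genes (log2, array 75th percentile set to 0) in the 5 WD tumours (left) and the 5 CD tumours (right); marker shape gives the slide, open markers are not well above background and bars are group means with SD. The 2 groups overlap for every gene, and Csn1s1, Csn3 and Lalba spread widely within each group.

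Between tumours of the same diet group, 4 of the 6 tested members were among the 8 most variable of all 16779 genes. The members were chosen with earlier results of these data known, so these ranks are a description with no test. The within-diet SD was 3.69 for Lalba (rank 1), 3.04 for Csn1s1 (rank 2), 2.74 for Glycam1 (rank 3) and 2.58 for Csn3 (rank 8). The median gene had an SD of 0.34, and 99% of genes lay below 1.35. Csn2 (SD 1.10, rank 391) and Mfge8 (SD 0.99, rank 596) were above the 95th percentile of 0.91. Much of this spread lay between slides. With slide in the fit, the SD was 2.57 for Lalba (rank 6), 2.56 for Glycam1 (rank 7), 1.62 for Csn3 (rank 77), 1.56 for Csn1s1 (rank 96), 0.35 for Mfge8 (rank 6778) and 0.30 for Csn2 (rank 8309), beside a median of 0.30 over all genes. Over the 6 tumours of slides 1 and 3 alone, the SD was 2.23 for Glycam1 (rank 11), 1.34 for Csn2 (rank 143), 0.92 for Csn1s1 (rank 640), 0.84 for Lalba (rank 838), 0.60 for Csn3 (rank 2139) and 0.45 for Mfge8 (rank 4242). The extreme ranks of Lalba, Csn1s1 and Csn3 therefore rest on the 4 tumours of slide 2. Glycam1 had most of its low values below the background call, and its rank was 85 with normexp background correction. With normexp, Csn2 had an SD of 0.51 (rank 2974), and in the deposited matrix one of 0.37 (rank 2264), so its place above the 95th percentile did not hold there. Mfge8 had an SD of 1.27 (rank 43) with normexp.

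**Figure D2:**
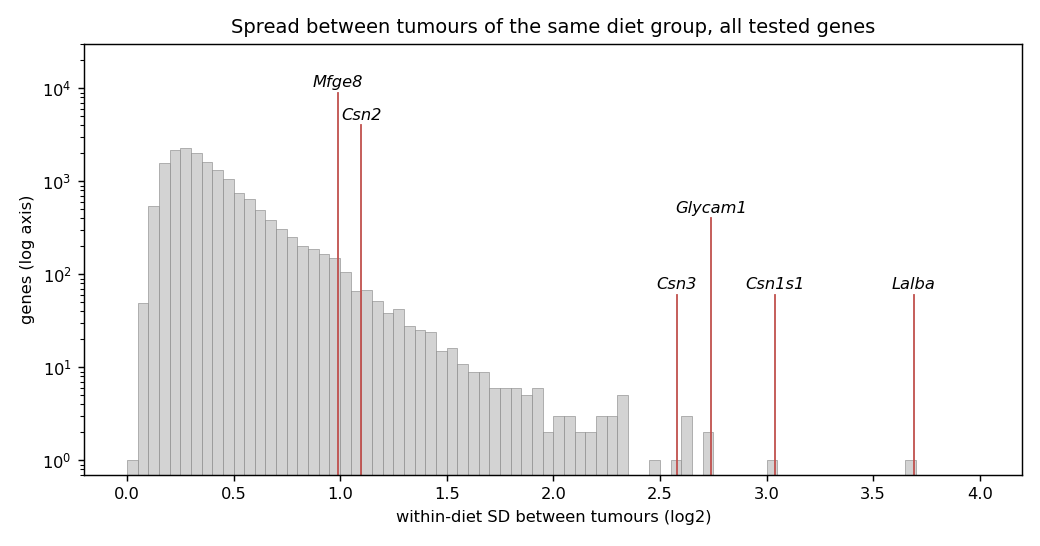
Histogram of the within-diet SD between tumours (log2) of all 16779 tested genes, with the number of genes on a log axis; red lines mark the SD of the 6 tested milk protein genes, and their heights carry no meaning. Lalba, Csn1s1, Glycam1 and Csn3 lie between 2.58 and 3.69, beyond the 99th percentile of 1.35.

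Slide was tested in 1 fit with diet across all genes, a test chosen after the levels had been seen. By limma with Benjamini-Hochberg adjustment, 390 of 16779 genes (2.32%) differed between slides at an adjusted p under 0.05, and 3 of the 6 tested members were among them. Csn2 averaged -0.44 on slide 1, -2.42 on slide 2 and -2.79 on slide 3 (limma adjusted p 0.00631). Mfge8 averaged 5.02, 3.57 and 5.55 on slides 1, 2 and 3 (limma adjusted p 0.0108), and Csn1s1 averaged 4.62, 0.01 and 5.32 (limma adjusted p 0.0372). Csn2 was thus highest on slide 1, whereas Mfge8 and Csn1s1 were lowest on slide 2. Csn3, at 5.90, 2.16 and 6.31, did not pass the fit across all genes (limma adjusted p 0.102), nor did Lalba at 5.44, 0.10 and 5.53 (limma adjusted p 0.158) or Glycam1 at 0.15, -3.09 and -0.80 (limma adjusted p 0.447). An exact permutation of tumours over the slides, which can give no p below 0.000476, gave adjusted p-values over 7 measures of 0.00667 for Csn2, Csn3 and Mfge8, 0.0266 for Csn1s1, 0.0445 for Lalba and 0.262 for Glycam1. The share of a member's variance between slides was 94.6% for Csn2, 82.6% for Mfge8, 77.7% for Csn1s1, 70.0% for Csn3, 62.9% for Lalba and 32.0% for Glycam1.

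**Figure D3:**
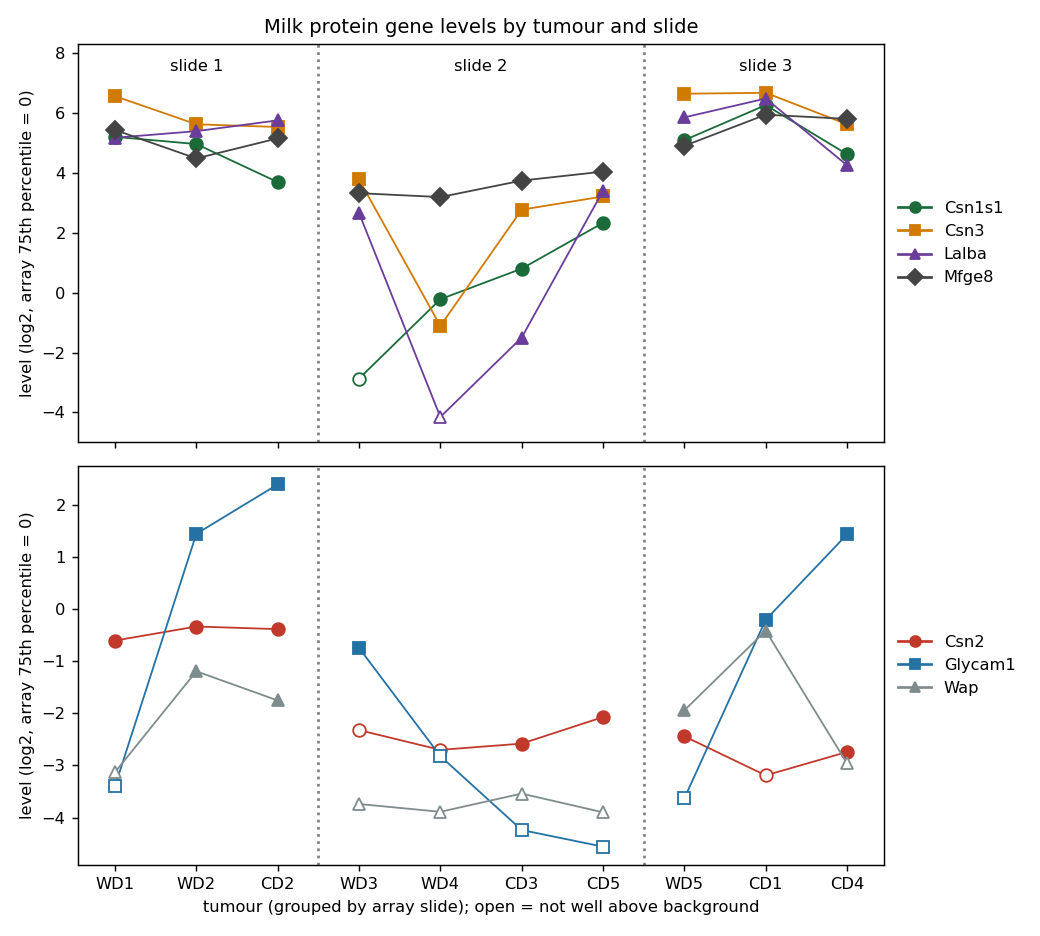
Level (log2, array 75th percentile set to 0) of 7 milk protein genes in each tumour, with tumours grouped by array slide and WD before CD within a slide; lines only join the points of a gene and open markers are not well above background. Csn1s1, Csn3, Lalba and Mfge8 are lowest in the 4 tumours of slide 2, Csn2 is high on slide 1 only, and Wap is well above background in 4 tumours of slides 1 and 3.

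Csn1s1, Csn3, Lalba and Mfge8 ranked the tumours alike, while Csn2 and Glycam1 did not follow them. All 15 pairs of the 6 tested members were compared over 10 tumours, by permutation with Benjamini-Hochberg adjustment over the pairs. Csn3 and Lalba had a Pearson r of 0.94 (permutation p 9e-05, adjusted p 0.00135) and a Spearman rho of 0.88 (permutation p 0.00149, adjusted p 0.0108). Without WD4 and CD3, the tumours farthest from the median of Csn3, r was 0.87. Csn1s1 and Csn3 had an r of 0.74 (permutation p 0.0134, adjusted p 0.0402) and a rho of 0.90 (permutation p 0.00064, adjusted p 0.0096). WD3 was the tumour that departed from their common order, with Csn3 at 3.78 and Csn1s1 not well above background. Without WD3 and WD4 their r was 0.95. Mfge8 correlated with Csn1s1 at 0.88 (permutation p 0.00045, adjusted p 0.00337), with Csn3 at 0.82 (permutation p 0.00084, adjusted p 0.0042) and with Lalba at 0.77 (permutation p 0.00461, adjusted p 0.0173). Csn1s1 and Lalba had an r of 0.71 that did not pass after adjustment (permutation p 0.0256, adjusted p 0.064), with a rho of 0.84 (permutation p 0.00365, adjusted p 0.0109). Csn2 had an r of 0.31 with Csn3 (permutation p 0.399, adjusted p 0.499), 0.25 with Csn1s1 and 0.37 with Lalba. Glycam1 had r values of 0.24 to 0.43 with the other members, with adjusted p-values of 0.424 to 0.534.

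These correlations pool tumours that slide 2 separates from the rest, so they were recomputed within slides. With each level centred on its slide mean, r was 0.84 for Csn3 with Lalba (exact permutation within slides p 0.0266), 0.45 for Csn1s1 with Mfge8, 0.31 for Csn3 with Mfge8, 0.26 for Lalba with Mfge8, 0.05 for Csn1s1 with Lalba and 0.02 for Csn1s1 with Csn3. No pair passed after adjustment over the 15 pairs, the lowest adjusted p being 0.399 for Csn3 with Lalba. Among the 6 tumours of slides 1 and 3, r was 0.76 for Csn1s1 with Csn3 (exact permutation p 0.00833), 0.52 for Csn3 with Lalba (exact permutation p 0.342) and 0.36 for Csn1s1 with Mfge8 (exact permutation p 0.496). Each check thus passed for 1 of these pairs before adjustment, and not for the same pair: Csn3 with Lalba within slides, and Csn1s1 with Csn3 over the 6 tumours. Some weak positive pooled values of Csn2 and Glycam1 turned negative. Over the 6 tumours, r was -0.86 for Glycam1 with Csn3 (exact permutation p 0.0625) and -0.56 for Csn2 with Csn1s1 (exact permutation p 0.297). Within slides it was -0.57 for Glycam1 with Csn1s1 (exact permutation p 0.0567), but 0.37 for Csn2 with Csn3 and 0.53 for Csn2 with Lalba. Whether the members share an order within slides cannot be settled with this number of tumours. Within diets, the pooled values were hardly moved, at 0.94 for Csn3 with Lalba and 0.74 for Csn1s1 with Csn3.

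**Figure D4:**
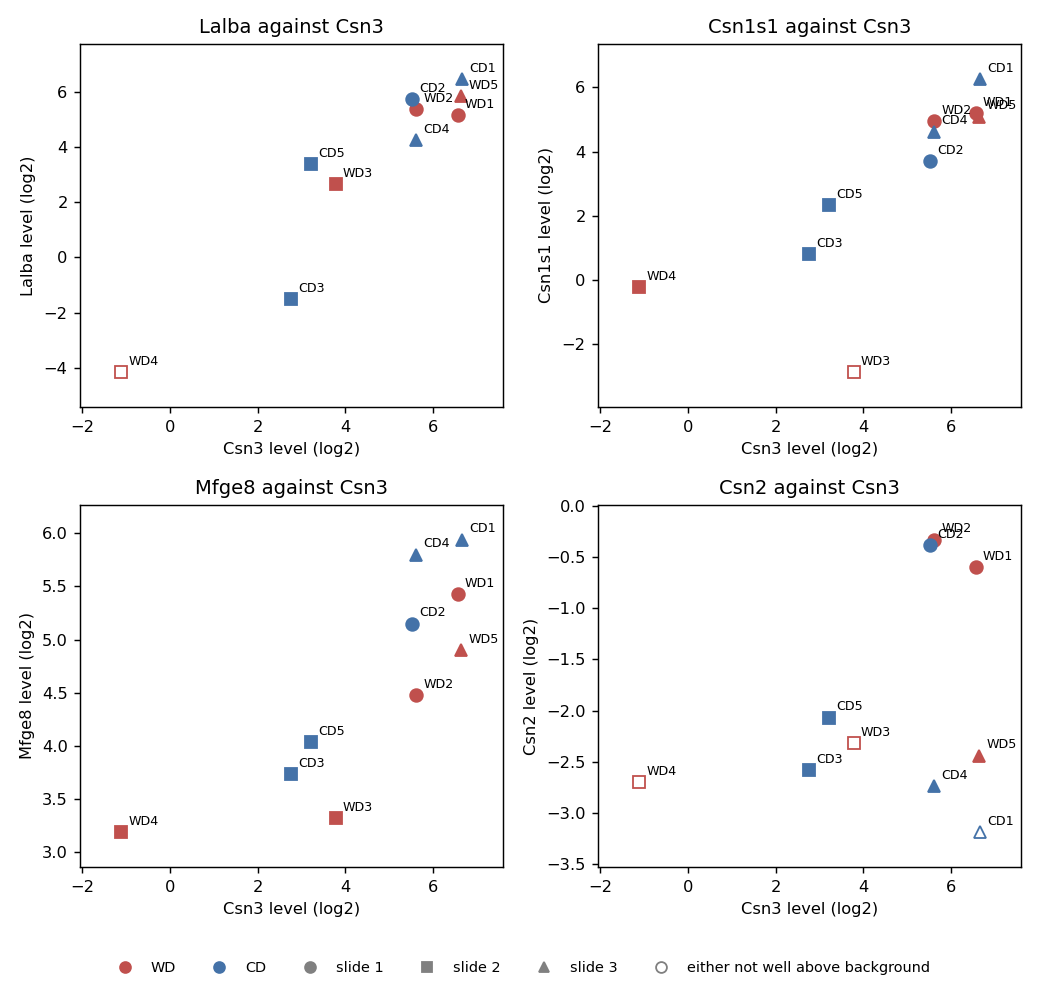
Level (log2) of Lalba, Csn1s1, Mfge8 and Csn2 against the level of Csn3 in the 10 tumours, with colour for diet, marker shape for slide and open markers where either gene is not well above background. Lalba, Csn1s1 and Mfge8 are low in the slide 2 tumours, which are also lowest for Csn3, while CD1, WD5 and CD4 have high Csn3 and low Csn2.

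The comparison the study was designed for is that of maternal diets, and no milk protein gene differed between them beyond the spread between tumours. By limma with Benjamini-Hochberg adjustment, 0 of the 16779 genes (0%) passed an adjusted p of 0.05, and 2603 (15.5%) had an unadjusted p under 0.05, 1308 of them higher (7.8%) and 1295 lower (7.72%) in WD tumours. None of the 6 tested members was among either. Non-overlapping diet groups were seen for 610 genes (3.64%), and for 0 of the 8 milk protein genes. The difference was below 0 for 5 of the 6 tested members and for 48.6% of all genes, and its median was -0.68 for the 6 members and 0.01 for all genes tested. This median was -1.28 without CD3 and 0.18 without WD4. With the array's 75th percentile as a covariate it was 0.74, and Csn1s1, Csn3, Lalba and Mfge8 then changed sign.

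Csn1s1 averaged 2.43 ± 3.75 in WD tumours and 3.54 ± 2.09 in CD tumours (SD, n = 5 each). The WD minus CD difference was -1.10 (SE 1.62, limma adjusted p 0.766; exact permutation p 0.595), with a 95% interval of -4.66 to 2.45. Without WD3 it was 0.22, so 1 tumour set its direction. Csn3 averaged 4.30 ± 3.23 in WD tumours and 4.76 ± 1.68 in CD tumours (SD, n = 5 each; difference -0.46, SE 1.38, limma adjusted p 0.897). Lalba averaged 2.98 ± 4.18 in WD tumours and 3.68 ± 3.14 in CD tumours (SD, n = 5 each; difference -0.69, SE 1.97, limma adjusted p 0.892). Without WD4 the differences were 0.89 for Csn3 and 1.09 for Lalba, and without CD1 they were 0.01 for both. For each of Csn1s1, Csn3 and Lalba, 3 of 5 WD tumours lay above the CD mean.

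Csn2 was the only tested member with a positive difference. It averaged -1.68 ± 1.12 in WD tumours and -2.19 ± 1.09 in CD tumours (SD, n = 5 each; difference 0.52, SE 0.60, limma adjusted p 0.702). WD1 and WD2, both on slide 1, were the WD tumours above the CD mean, and with slide as a block the difference was 0.05. Glycam1 averaged -1.83 ± 2.16 in WD tumours and -1.03 ± 3.21 in CD tumours (SD, n = 5 each; difference -0.79, SE 1.46, limma adjusted p 0.818), and the difference was 0.06 without CD2. Mfge8 averaged 4.26 ± 0.98 in WD tumours and 4.93 ± 1.00 in CD tumours (SD, n = 5 each; difference -0.67, SE 0.54, limma adjusted p 0.567), with 4 of 5 WD tumours below the CD mean. Its 95% interval of -1.85 to 0.51 was the narrowest of the 6, and for Csn1s1, Csn3, Lalba and Glycam1 the intervals leave room for differences of several fold in either direction.

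Wap, not tested across genes, had measured levels averaging -2.78 ± 1.17 in WD tumours and -2.51 ± 1.43 in CD tumours (SD, n = 5 each; exact permutation p 0.73), and Csn1s2a was not well above background in any tumour of either group.

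Within slides 1, 2 and 3, the WD minus CD difference of Mfge8 was -0.19, -0.64 and -0.97, the same sign on all 3, and with slide as a block it was -0.61 (limma p 0.0192, adjusted p 0.216). Csn1s1 differed by 1.39, -3.11 and -0.34, Csn3 by 0.55, -1.66 and 0.50, and Lalba by -0.47, -1.70 and 0.48 on the 3 slides. Csn2 differed by -0.08, -0.18 and 0.52, and Glycam1 by -3.37, 2.62 and -4.25. No within-slide value has a test, since a slide held 1 or 2 tumours of a group. The share of a member's variance between diets was 12.5% for Mfge8, 6.37% for Csn2, 3.97% for Csn1s1, 2.55% for Glycam1, 1.09% for Lalba and 0.998% for Csn3. With so few tumours such a share is above 0 without any effect of diet. The exact permutation p of the diet difference was 0.302 for Mfge8, the member with the largest share.

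**Figure D5:**
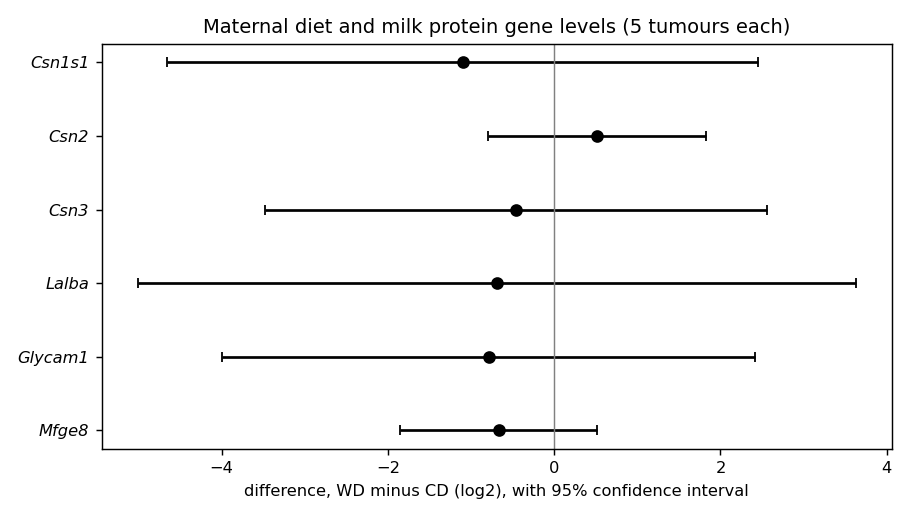
WD minus CD difference (log2) of the 6 tested milk protein genes with its 95% confidence interval from the fit across all genes (5 tumours in each group). Every interval includes 0, and the widest is that of Lalba, from -5.01 to 3.63.

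The hormone receptor and the factors that act on milk protein genes were compared in the same fit. Prlr had levels of 0.79, 2.38, 2.82, 2.55 and 1.67 in WD1 to WD5, against 2.78, 2.52, 2.93, 3.01 and 2.66 in CD1 to CD5 (difference -0.74, limma adjusted p 0.320). WD1, with the lowest Prlr, was among the high tumours for Csn1s1, Csn3 and Lalba. Stat5a averaged 5.63 ± 0.28 in WD tumours and 5.70 ± 0.32 in CD tumours (SD, n = 5 each; limma adjusted p 0.901), with levels between 5.29 and 6.19. Only RNA was measured here, so the activity of the Prlr and Stat5a proteins is not known. Their part in the milk protein levels was not tested. Of the 24 tested genes of lactogenic hormone signalling (30 listed), 8 were higher and 16 lower in WD tumours, 0 of them past adjustment, with a median difference of -0.11. Pgr, the progesterone receptor, averaged 0.26 ± 0.56 in WD tumours and 1.26 ± 0.29 in CD tumours (SD, n = 5 each; limma adjusted p 0.181). Esr1, the oestrogen receptor, averaged -3.21 ± 0.77 in WD tumours and -2.04 ± 0.52 in CD tumours (SD, n = 5 each; limma adjusted p 0.202). It was well above background on 0 WD arrays and 5 CD arrays, so it entered the fit through the CD tumours alone. These counts depend on each array's background: at the same level of -2.57, CD5 was called well above background and WD2 was not. The lowest level so called was -3.06 on CD5 and -1.85 on WD2.

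Other milk components were no clearer between diets. Of the 10 tested genes for other milk proteins (20 listed), 8 were higher and 2 lower, 0 past adjustment, with a median difference of 0.31. Among them, the protease inhibitor Slpi averaged 4.23 ± 0.87 in WD tumours and 3.19 ± 0.55 in CD tumours (SD, n = 5 each; limma adjusted p 0.262), and the phosphoprotein Spp1 2.46 ± 1.69 in WD tumours and 1.53 ± 0.89 in CD tumours (SD, n = 5 each; limma adjusted p 0.556). Of 11 tested genes of lactose synthesis and secretion (14 listed), 6 were higher and 5 lower, 0 past adjustment (median difference 0.09). B4galt1, the partner of Lalba in lactose synthase, had a difference of 0.37 (limma adjusted p 0.371), and the vesicle protein Vamp8 one of -0.66 (limma adjusted p 0.219). Of 11 tested milk fat genes (16 listed), 3 were higher and 8 lower, 0 past adjustment (median difference -0.11). Fasn, the fatty acid synthase, had a difference of -0.51 (limma adjusted p 0.227), and Dgat1, which makes triglyceride, one of -0.26 (limma adjusted p 0.370). Btn1a1, the butyrophilin of the milk fat globule, was well above background on 2 WD and 2 CD arrays and was not tested.

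The genes whose tumour pattern came nearest to the mean level of the 3 tested caseins were sought among 8253 tested genes with a symbol. Csn2 had another order of tumours (r 0.25 with Csn1s1 and 0.31 with Csn3), so this mean is not a pattern common to all 3. The mean level of Csn1s1, Csn2 and Csn3 was 3.72, 3.42, -0.47, -1.34 and 3.10 in WD1 to WD5, against 3.25, 2.95, 0.33, 2.50 and 1.16 in CD1 to CD5. It averaged 3.36 on slide 1, -0.08 on slide 2 and 2.95 on slide 3. By root mean square difference after centring over the 10 tumours, the nearest were Muc15 (0.53, r 0.96), a mucin known from the milk fat globule membrane of cattle, angiotensinogen (Agt, 0.72, r 0.94), Elf5 (0.73, r 0.93), Rasgef1c (0.79, r 0.89), Ngef (0.80, r 0.91) and Cel (0.83, r 0.91), the bile salt-stimulated lipase known from human milk. By r instead, the first 6 were Muc15, Or8w1b, Tfap2c, Flad1, Thrsp and Agt, at 0.94 to 0.96. These genes were picked for their likeness, so it is a description with no test, and all carry the low values of slide 2. Tfap2c was well above background on 10 arrays, Flad1 on 9, Muc15 and Thrsp on 8, and Agt and Ngef on 7. Elf5 was so on 6 arrays, and Rasgef1c, Cel and Or8w1b on 5. For Elf5, Rasgef1c, Cel and Or8w1b, none of the slide 2 values was well above background. For Agt and Ngef, those of WD3, WD4 and CD3 were not. The likeness of these genes therefore rests partly on signal near background.

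Elf5, which drives alveolar secretory cells, had levels of -0.30, -1.02, -2.91, -4.09 and -1.47 in WD1 to WD5, against -0.59, -1.89, -3.53, -1.78 and -3.09 in CD1 to CD5. It was well above background in 3 WD and 3 CD tumours. Its lowest 4 tumours were those of slide 2, and in none of these was it well above background. Muc15 had levels of 1.51, 0.38, -2.17, -2.78 and 0.31 in WD1 to WD5, against 1.26, -0.10, -1.94, 0.45 and -1.63 in CD1 to CD5, with the same 4 tumours lowest. Neither differed between diets beyond the spread (limma adjusted p 0.910 for Elf5 and 0.946 for Muc15). Within the lists of other milk synthesis genes, r with the casein mean ran in both directions. Over the 10 tumours, r was above 0 for 6 of 10 tested genes for other milk proteins (-0.59 to 0.96, median 0.62), 6 of 11 milk fat genes (-0.65 to 0.94, median 0.03), 5 of 11 genes of lactose synthesis and secretion (-0.66 to 0.43, median -0.03) and 12 of 24 genes of lactogenic hormone signalling (-0.86 to 0.93, median -0.03). Stat5a had an r of 0.14, Stat5b of the same list one of 0.75 and Prlr one of -0.48.

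The casein mean was also set against 16 other measures of each tumour: the mean levels of 14 gene lists, the array's 75th percentile and the number of probes well above background. The mean of the milk fat list alone passed adjustment over these 16 (r 0.85, permutation p 0.00228, adjusted p 0.0365; rho 0.78), with an r of 0.75 without WD3 and WD4 and of 0.32 within slides. Its genes did not follow the casein mean alike: gene by gene, r was above 0 for 6 of 11 and below 0 for 5, with a median of 0.03. The other milk proteins had an r of 0.66 (permutation p 0.0373, adjusted p 0.268) over tumours and -0.22 within slides, and the lactose list one of -0.22 (permutation p 0.526, adjusted p 0.647) over tumours and -0.79 within slides. Luminal epithelial markers had an r of 0.57 (permutation p 0.0858, adjusted p 0.268) and fibroblast markers one of -0.51 (permutation p 0.133, adjusted p 0.268). The number of probes above background had an r of 0.55 (permutation p 0.104, adjusted p 0.268) and the 75th percentile one of 0.43 (permutation p 0.209, adjusted p 0.304).

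The tumours carried the markers of mammary epithelium throughout. Of 13 luminal markers on the array, 10 were well above background on all 10 arrays, as were 9 of 11 basal markers. The luminal list averaged 3.05 to 3.40 in WD tumours and 3.23 to 3.72 in CD tumours, and 3.35, 3.22 and 3.60 on slides 1, 2 and 3. Of its 12 tested genes, 6 had an unadjusted limma p under 0.05 between slides (16% of all genes did) and 0 passed adjustment. Krt18 averaged 8.62 ± 0.29 in WD tumours and 8.58 ± 0.26 in CD tumours (SD, n = 5 each), while Krt8 averaged 3.34 ± 0.65 in WD tumours and 4.30 ± 0.55 in CD tumours (SD, n = 5 each; limma adjusted p 0.231). Krt19, the luminal gene of smallest p, averaged 5.15 ± 0.60 in WD tumours and 6.26 ± 0.71 in CD tumours (SD, n = 5 each; limma adjusted p 0.213). The basal keratin Krt5 averaged 4.05 ± 0.49 in WD tumours and 4.22 ± 0.31 in CD tumours (SD, n = 5 each), and Krt14 4.78 ± 0.55 in WD tumours and 4.68 ± 0.38 in CD tumours (SD, n = 5 each). The basal genes of smallest p were Dsc3, with a difference of -1.20 (limma adjusted p 0.305), and Dsg3, with one of 0.39 (limma adjusted p 0.390). Fibroblast markers averaged 1.67 to 3.38 in WD tumours and 1.10 to 2.68 in CD tumours, with 9 of 9 tested higher in WD. Macrophage markers averaged 1.60 to 3.32 in WD tumours and 1.96 to 2.56 in CD tumours, with 7 of 7 higher, and T cell markers 0.95 to 2.63 in WD tumours and 0.29 to 1.24 in CD tumours, with 4 of 4 higher. Lower in WD tumours were 8 of 12 luminal genes (median difference -0.28), 7 of 10 basal genes (-0.19), 5 of 6 mast cell genes (-1.22) and 7 of 8 proliferation genes (-0.66). Mast cell markers averaged -1.50 to 1.25 in WD tumours and 0.28 to 1.95 in CD tumours, and proliferation genes -1.18 to 1.07 in WD tumours and -0.42 to 1.48 in CD tumours. No gene of these lists passed adjustment, and the part of these cell types in the milk protein levels was not tested. The adipocyte genes Lep, Cidec and Pparg and the muscle genes Acta1, Ckm, Myh4 and Myl1 were well above background on 0 arrays. Other genes of these lists were detected: the adipocyte gene Cfd on all 10 arrays (1.55 to 4.95 in WD tumours and 1.92 to 4.95 in CD tumours), and the muscle genes Tnni2 on 10 and Myh2 on 9.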

How the data were processed

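Per the file headers, the authors read the arrays with Agilent Feature Extraction 11.5.1.1 (version 15.5 per the submitters' processing notes). The deposited array files give background-subtracted spot intensity values and marks of 0 or 1 (other) for spots well above background, per the file headers. The deposited series matrix holds log2 values, inferred to be quantile-normalised median signals (Spearman correlation 1 with each array's own).

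Probes were named by transcript identifier through RefSeq (17502 of 41012 matched). Processed signals were taken to log2 minus each array's 75th percentile of measuring spots. Probes well above background on at least 5 of 10 arrays were kept, with the brightest probe per gene, which left 16779 genes. limma 3.58.1 in R 4.3.3 compared WD with CD, with Benjamini-Hochberg adjustment over all of them. Single values were tested by exact two-sided permutation (252 splits, smallest p 0.0079) and correlations by 100000 permutations, with scipy 1.17.1 in Python 3.11.15. Fold bounds use the lowest signal well above background on the array. The number of arrays limits the precision. The normexp alternative used an offset of 50 on median spot signals, the mean signals not being used here.

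Named genes were the members, the 2 tested genes of smallest p of each milk synthesis, hormone signalling, luminal and basal list, 9 genes fixed by name (Csn1s2b, Prlr, Stat5a, Elf5, Krt8, Krt18, Krt5, Krt14 and Btn1a1) and the 6 most like the casein mean, by each of the measures of likeness. The same rule also picked fibroblast, macrophage, T cell, endothelial, mast cell and proliferation genes, which are not named here. Markers well above background on 0 arrays, and Myh2, Tnni2 and Cfd beside them, are also named, as is Stat5b beside Stat5a. Members and lists were chosen with earlier results of these data known.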

Additional observations from a re-analysis of the deposited data

How the results depend on the processing

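0 genes passed adjustment between diets under every alternative, which were normexp, quantile and median scaling, the deposited matrix, other filters, probe rules, slide as a block, array brightness as a covariate and each tumour left out. Genes with an unadjusted p under 0.05 numbered 2603, against 499 with normexp, 7055 with no filter, 963 with array brightness as a covariate and 1853 to 3283 without single tumours. The median difference of the tested members, -0.68, was between -0.73 and -0.34 under the alternatives other than brightness as a covariate, which gave 0.74 (Csn1s1 1.26, Csn3 0.90, Lalba 2.05, Mfge8 0.08), and between -1.28 and 0.18 without single tumours. The sign also changed for Csn1s1 (0.22 without WD3), Csn3 (0.89 without WD4, 0.01 without CD1), Lalba (1.09 without WD4, 0.01 without CD1) and Glycam1 (0.06 without CD2). The cause was not tested. No member had an adjusted p below 0.216. The median SD of the members within diets, 2.66, was 1.84 with normexp and 1.66 in the deposited matrix. With the filter of 10 arrays above background it was 1.79, over the 2 members kept. The reason for these lower values was not tested. The replicate numbers did not pair tumours (correlation of deviations between tumours of the same number -0.02 to 0.16), and a fit with the replicate number as a block gave a median of -0.68 and 0 genes called. Pearson r between Csn3 and Lalba was 0.93 to 0.95 under other values and 0.86 to 0.97 without single tumours. For Csn1s1 and Csn3 it was 0.74 to 0.89 and 0.71 to 0.94. Levels of Csn2, Wap and Glycam1 near background limit what can be said of their low tumours.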
